A study of Homo sapiens with 12 samples.

Results

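The genes described here are 10 enzymes of glycolysis (HK1, HK2, GPI, PFKL, PFKM, PFKP, ALDOA, PGK1, PKM and LDHA), followed through RNA precipitated with Argonaute 2 (AGO2) from K562 cells with and without miR-143. They were found by name: a row counted when 1 of the gene names it carries was that of a member. This gave 11 of the 61782 rows of each table. HK1, HK2, PFKL, PFKM, ALDOA, PGK1, PKM and LDHA had a row of their own above 0 FPKM. GPI and PFKP were measured only in rows that Cufflinks had joined with neighbouring genes, and a further row named GPI was listed at 0 in all groups.

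K562 is a human erythroleukemia cell line, and per the methods of the study the line used here carried an inducible C/EBPα fused to the estrogen receptor. No estradiol treatment is named for these libraries. The cells had been transduced with lentiviral particles of pLV-miR-143 or of pLV-control, the control vector. Per the methods, transduced cells were obtained with puromycin or by sorting, and both populations were then kept under puromycin. The parent line was itself grown with puromycin. Both populations were subjected to precipitation with AGO2 antibody or with unspecific immunoglobulin, the mock precipitate. The 12 samples form 4 groups of 3, control_IgG and control_AGO from the control cells and miR143_IgG and miR143_AGO from the miR-143 cells. The authors deposited 1 average FPKM (fragment counts divided by transcript length and by the mapped fragments of a library) per row and group. No spread between replicates could be given, so that no difference in this text has a test or a replicate check, and every value is the authors' average. Libraries of the input RNA were not analysed here. More transcript in the cells and more transcript held by AGO2 therefore cannot be told apart.

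Glycolysis turns glucose into pyruvate in a chain of cytosolic reactions and regenerates ATP on the way. Hexokinase traps glucose as glucose-6-phosphate, phosphofructokinase makes the committed step, and lactate dehydrogenase returns NAD+ by reducing pyruvate to lactate. MicroRNAs guide AGO2 to the 3′ UTRs of mRNAs mainly through the seed, bases 2 to 8 from the 5′ end, and AGO2 precipitation recovers the mRNAs held in this way. HK2, the inducible hexokinase of muscle and of many tumours, has been described as a target of miR-143 in solid tumours. The question addressed here is how HK2 behaved beside the enzymes that act with it.

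The mature miR-143-3p (RefSeq, GRCh38.p14, chr5:149428978-149428998, plus strand) is printed first, with the seed in capitals. The 30-base windows beneath it hold the matches of 7 or more bases found in the 3′ UTR of HK2, the member with most of them, read 5′ to 3′ on the transcript strand, with the match in capitals.
miR-143-3p: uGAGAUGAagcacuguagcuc
HK2 first 7mer-A1: ttttgtctctgCATCTCAttgtagagcttg
HK2 second 7mer-A1: gccagctgtcgCATCTCAgcggggcgcaca
HK2 8mer: tgaatagcgaaTCATCTCAaatccttgagc

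HK2 (GRCh38, GENCODE 29, chr2:74833981-74893359, plus strand) held 3 of the 4 matches found in the 10 genes. Its windows lie at chr2:74891073-74891102, chr2:74891601-74891630 and chr2:74893221-74893250. In the 3′ UTR of 2418 nt the matches start at bases 143, 671 and 2291, and both annotated 3′ UTRs of HK2 carry all 3. The 8mer is TCATCTCA, which pairs with the whole seed and has an A opposite the first base of the miRNA. The 7mer-A1 is CATCTCA, and the 7mer-m8 that was also searched is TCATCTC. Only the strand of the transcript was searched, and a 7-base match inside an 8mer was not counted again. PGK1 (chrX:77910739-78129296, plus strand) held 1 7mer-A1 in a 3′ UTR of 3466 nt. The other 8 genes held no match of 7 bases or more. A 6-base match, CATCTC, was present in addition in PGK1 and at base 638 of GPI, there in 2 of 5 annotated 3′ UTRs. Among 19164 coding genes with an annotated 3′ UTR, 24.1% held a match of 7 or more bases and 5.09% an 8mer, so that 2 of 10 members is close to the share in all genes. These are matches of letters and were not shown to be bound. The 3′ UTRs of the other members were mostly short, from 223 nt in PFKP to 1144 nt in LDHA, apart from the 2377 nt of GPI.

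**Figure D1:**
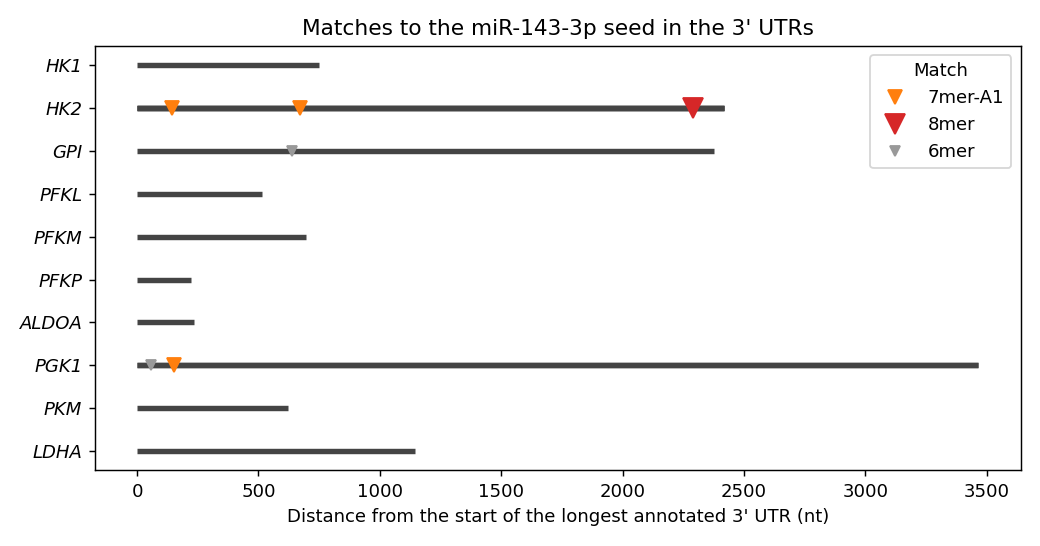
Matches to the miR-143-3p seed along the longest annotated 3′ UTR of each gene. The horizontal axis is the distance from the start of the 3′ UTR in nt, each bar is 1 UTR, and triangles mark the kind of match. HK2 carries 2 7mer-A1 matches and an 8mer close to the 3′ end, and PGK1 carries 1 7mer-A1.

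MIR143 itself, the check of the vector labels, had 0 FPKM in control_IgG and control_AGO but 44781 FPKM in the mock and 118393 FPKM in the AGO2 precipitate of miR-143 cells. The precipitates differed in composition, and coding genes made up 7.90% and 8.38% of the summed FPKM in control_IgG and miR143_IgG but 42.0% and 37.2% in control_AGO and miR143_AGO. The 10 members together made up 0.0261% to 0.269% of the sum. The number of fragments is unknown. As a sign of depth, the lowest products of FPKM and transcript length (the low edge, which falls as depth rises) were compared. Relative to miR143_AGO the edge stood 12.9 times higher for control_IgG, 1.64 times for miR143_IgG and 1.09 times for control_AGO. All 12 erythroid markers of K562 were above 0 in at least 1 group. Of a list of granulocyte and monocyte genes, MPO, ELANE, CD14, S100A8 and S100A9 were listed at 0 in all groups. The other 4 genes of that list of 9 were above 0 in at least 1 group, with ITGAM at 4.66 to 13.0 FPKM, LYZ at up to 6.27, CSF3R at up to 3.85 and CEBPE at 2.12 in control_IgG alone. The sum of the list ranged from 8.30 FPKM in miR143_IgG to 15 FPKM in control_IgG. Of 6 stromal and epithelial markers, the keratins KRT8 and KRT18 ranged from 30.4 to 92.0 FPKM and EPCAM from 0 to 8.28. COL1A1 was at most at 0.05 FPKM, and COL1A2 and COL3A1 were at 0 in all groups. Of 7 lymphocyte markers, 4 were above 0 in at least 1 group, the highest being CD3D at 4.95 FPKM in miR143_IgG. The part of these marker genes in the results was not tested.

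Within each group the glycolysis genes spanned more than 2 orders of magnitude. The highest member was 254 times the lowest in control_IgG, 254 times in control_AGO, 428 times in miR143_IgG and 190 times in miR143_AGO. ALDOA, GPI and PKM were the 3 highest in this order in all 4 groups, and HK2 was the lowest in all 4. The median member stood at 33.0 FPKM in control_IgG against 27.9 in control_AGO, and 44.8 in miR143_IgG against 25 in miR143_AGO. FPKM is scaled to transcript length, so that these levels can be set beside each other, with the reservation on joined rows above.

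**Figure D2:**
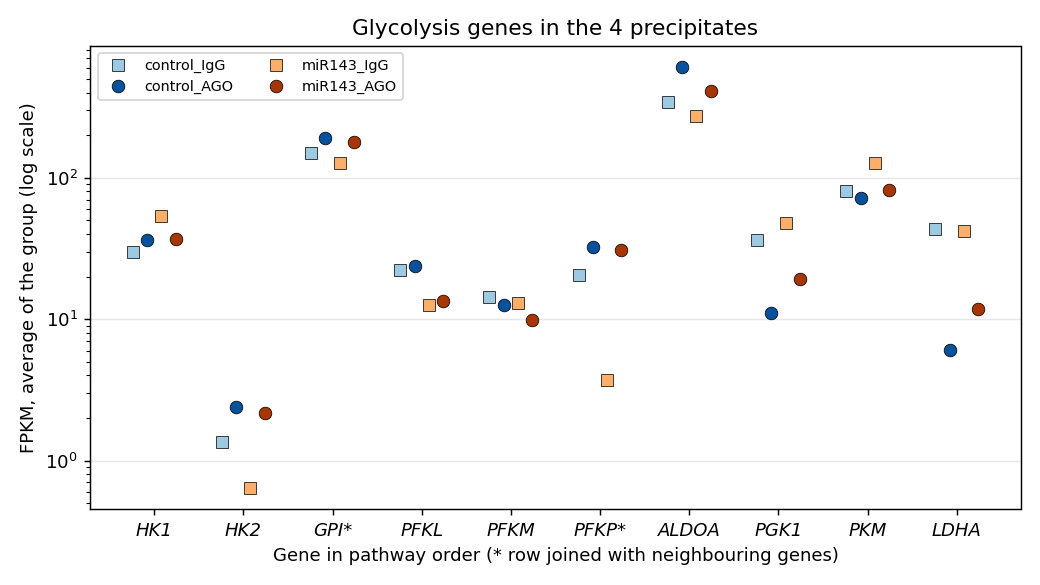
FPKM of the 10 genes in pathway order on a log axis, with 1 point for the authors' average of each group. Squares are mock precipitates, circles are AGO2 precipitates, and asterisks mark rows joined with neighbouring genes. HK2 lies lowest in all groups, and LDHA and PGK1 show the AGO2 points below the mock points.

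At the entry step, HK1, the hexokinase of most tissues (chr10:69269984-69401884, plus strand), was listed at 29.8 FPKM in control_IgG against 36.2 in control_AGO, and 53.2 in miR143_IgG against 37.1 in miR143_AGO. HK2 was listed at 1.34 FPKM in control_IgG against 2.39 in control_AGO, and 0.638 in miR143_IgG against 2.16 in miR143_AGO. HK2 was thus close to level between the AGO2 precipitates and lower in both mock precipitates, where the miR-143 cells had the lowest value. These low values rest on unequal evidence. Divided by the low edge of its group, the product of FPKM and transcript length of HK2 was 10.1 to 11 in control_IgG, 37.5 to 41.0 in miR143_IgG, 212 to 232 in control_AGO and 209 to 228 in miR143_AGO, the range covering the shortest and longest coding transcript.

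GPI, which converts glucose-6-phosphate to fructose-6-phosphate (chr19:34359480-34402413, plus strand), shared its row with PDCD2L and a transcript named after its clone. The joined row was listed at 149 FPKM in control_IgG against 190 in control_AGO, and 127 in miR143_IgG against 180 in miR143_AGO. PDCD2L follows GPI on the same strand at chr19:34404384-34426168 without overlap in GENCODE 29, and the share of each gene in the value cannot be told.

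The 3 phosphofructokinases are named after liver (PFKL), muscle (PFKM) and platelets (PFKP). PFKL (chr21:44300051-44327376, plus strand) was listed at 22.2 FPKM in control_IgG against 23.7 in control_AGO, and 12.7 in miR143_IgG against 13.5 in miR143_AGO, so that both precipitates of the miR-143 cells were lower than those of the control cells. PFKM (chr12:48105139-48146404, plus strand) was listed at 14.2, 12.6, 13.1 and 9.89 FPKM in the same order of groups and was the steadiest of the 3. The row that joins PFKP (chr10:3066333-3137712, plus strand) with PITRM1-AS1 and another such transcript was listed at 20.7 FPKM in control_IgG against 32.1 in control_AGO, and 3.72 in miR143_IgG against 30.8 in miR143_AGO. Only its value in miR143_IgG stood apart from the other 3 groups.

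ALDOA, the aldolase that splits fructose-1,6-bisphosphate (chr16:30064164-30070457, plus strand), was listed at 342 FPKM in control_IgG against 606 in control_AGO, and 273 in miR143_IgG against 410 in miR143_AGO. Both AGO2 precipitates were above both mock precipitates. PGK1, the first ATP-forming enzyme of the pathway, was listed at 36.1 FPKM in control_IgG against 11.1 in control_AGO, and 47.8 in miR143_IgG against 19.2 in miR143_AGO, with both AGO2 precipitates below both mock precipitates.

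PKM, which forms pyruvate and ATP (chr15:72199029-72231822, minus strand), was listed at 80.8 FPKM in control_IgG against 71.7 in control_AGO, and 126 in miR143_IgG against 82.1 in miR143_AGO. Its M1 and M2 splice forms were not separated in these values. LDHA, which reduces pyruvate to lactate (chr11:18394388-18408425, plus strand), was listed at 43.1 FPKM in control_IgG against 6.02 in control_AGO, and 41.8 in miR143_IgG against 11.7 in miR143_AGO. As in PGK1, the mock precipitates were the high ones. Reads of a gene can also be assigned to near-identical processed pseudogenes. Of 15 rows named as pseudogenes of the members, 5 were above 0. The highest was LDHAP4, at 1.45 FPKM in control_IgG against 2.46 in control_AGO, and 5.03 in miR143_IgG against 1.08 in miR143_AGO, so that the values of LDHA carry that uncertainty.

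To describe how the RNA recovered with AGO2 differed between the cell populations, miR143_AGO was set against control_AGO. Without input RNA this ratio does not give the share of an mRNA that AGO2 holds. None of the 10 genes differed by 2-fold in either direction. HK2 stood at 0.903 times its value in control cells, with a log2 ratio of -0.10 on the scale of log2(FPKM + 1), which all log2 ratios here use. LDHA (log2 ratio 0.86) and PGK1 (0.74) were higher in miR-143 cells, PFKL (-0.77) and ALDOA (-0.56) were lower, and HK1 (0.03), PFKP (-0.06), GPI (-0.08), PKM (0.19) and PFKM (-0.32) lay between them. HK1 was the 1 member whose sign depended on the scaling, with log2 ratios from -0.15 to 0.06. Over the 9798 rows that reached 1 FPKM in either group, 17.7% were at least 2-fold higher, 14.1% were at least 2-fold lower and 1.03% were past 10-fold, the threshold of the study. Among the rows with a mean of 10 FPKM or more over both groups, which include all members but HK2 and LDHA, 8.10% were 2-fold higher and 16.4% were 2-fold lower.

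HK2 lay near the middle of its neighbours in this comparison. Its log2 ratio differed by -0.04 from the median of the other 9, and 3 of the 9 lay beneath it. Of all rows compared, 38.5% had a lower ratio than HK2. PGK1, the other member with a seed match, lay above 73.8% of the rows, and LDHA, which has none, above 78.1%. The median of the 10 members was -0.07, beside 0.17 over all rows and -0.05 over rows with a mean of 10 FPKM or more. For ALDOA the plain ratio was 0.677, for PFKL 0.569, for PGK1 1.73 and for LDHA 1.95.

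**Figure D3:**
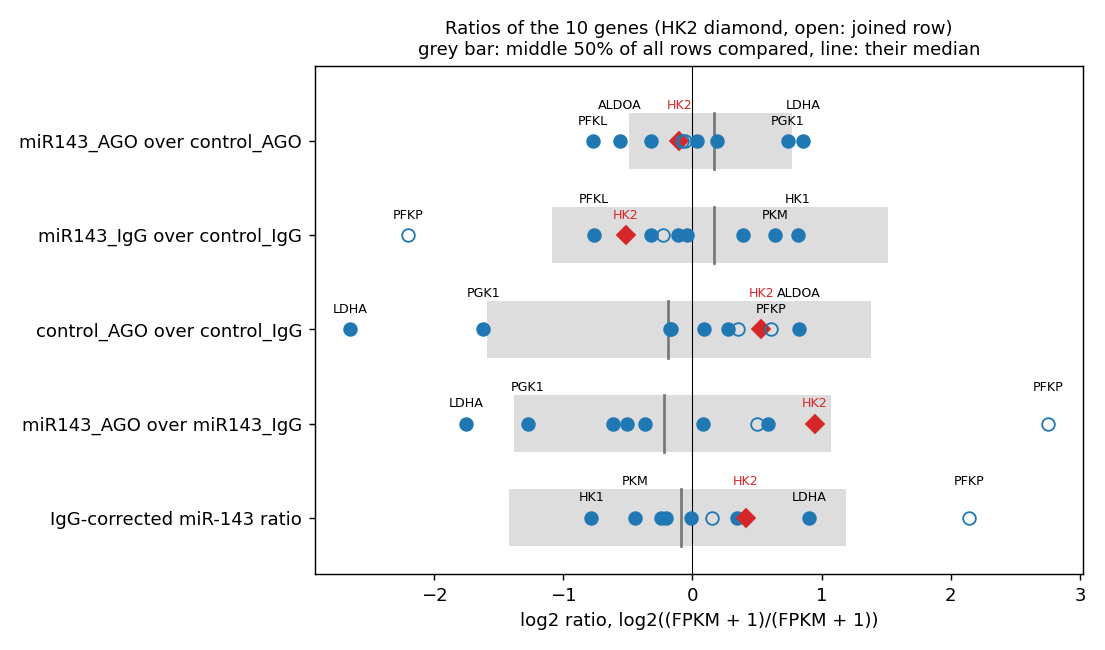
Log2 ratios of the 10 genes in the 5 comparisons, with HK2 as a red diamond, joined rows as open circles, and the middle 50% of all rows compared as a grey bar with its median. In miR143_AGO over control_AGO the members lie between -0.77 and 0.86, and LDHA and PGK1 are the lowest in both comparisons of AGO with IgG.

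Between AGO2 and mock precipitates, the glycolysis genes of the same cells differed more. LDHA was 7.16-fold lower in control_AGO than in control_IgG and 3.56-fold lower in miR143_AGO than in miR143_IgG. PGK1 was 3.25-fold lower in control cells and 2.49-fold lower in miR-143 cells. ALDOA was 1.77-fold higher in control cells and 1.5-fold higher in miR-143 cells, and HK2 was 1.78-fold and 3.38-fold higher. These are plain ratios, and those of HK2 rest on its low mock values. On the log2 scale, LDHA stood at -2.65 and -1.75, PGK1 at -1.62 and -1.27, ALDOA at 0.83 and 0.59, and HK2 at 0.53 and 0.95. The joined row of PFKP stood at 0.61 in control cells.

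In control cells, PGK1 and LDHA were the 2 members past 2-fold lower and none was past 2-fold higher, beside 36.2% of 9919 rows lower and 34.5% higher. In miR-143 cells, PGK1 and LDHA were again past 2-fold lower and the joined row of PFKP was higher, with a log2 ratio of 2.75, beside 33.5% of 10643 rows lower and 26.6% higher. No member was past 10-fold, as 9.36% and 5.27% of all rows were. The calls depended on the scaling. With FPKM taken as a share of the coding genes, 2 members were higher in control cells (ALDOA 1.35 and PFKP 1.12) and 2 lower, and in miR-143 cells 4 were higher (PFKP 3.20, HK2 1.22, ALDOA 1.09 and GPI 1.00) and LDHA alone was lower (-1.27), while PGK1 at -0.78 was no longer past 2-fold. Under this scaling 39.6% of all rows were 2-fold higher and 28.9% lower in control cells, and 33.8% were higher and 25.7% lower in miR-143 cells. The median row moved from -0.19 to 0.25 in control cells and from -0.22 to 0.19 in miR-143 cells. HK2 also passed 2-fold in miR-143 cells with the groups set to the same median, at 1.07.

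The remaining members differed less between AGO2 and mock precipitates. Their log2 ratios in control cells were 0.35 for the joined row of GPI, 0.27 for HK1, 0.09 for PFKL, -0.16 for PFKM and -0.17 for PKM. In miR-143 cells they were 0.50 for GPI, 0.08 for PFKL, -0.37 for PFKM, -0.51 for HK1 and -0.62 for PKM. The signs of PFKM in both populations and of PKM in control cells turned positive under other scalings. The median of the 10 members was 0.18 for the control cells and -0.14 for the miR-143 cells, but these signs were not stable. That of the control cells was -0.04 without the joined rows, and that of the miR-143 cells was 0.07, 0.30 and 0.32 with the groups set to the same median, to the same upper quartile or to the share of coding FPKM. As deposited, the median over all rows was -0.19 and -0.22, and over rows with a mean of 10 FPKM or more it was -0.71 and -0.65.

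These 2 comparisons share no library, and the order of the members was much the same in both. Spearman's rho between them was 0.93 over the 10 genes and 0.90 over the 8 with a row of their own, and 9 of 10 genes lay on the same side of 0, HK1 being the exception. Over 2778 rows of 1 coding gene with a mean of 10 FPKM or more, rho was 0.51 and 70.4% lay on the same side. The points are genes and not replicates, and the rho is a description of these averages. On the log2 scale HK2 was above 7 of the 9 other members in control cells. It was above 8 of 9 in miR-143 cells, where only the joined row of PFKP exceeded it. The rank in control cells depends on the added 1. By plain ratio HK2, at 1.78, lay above ALDOA at 1.77 and the joined row of PFKP at 1.55 as well. Among all rows compared, 60.1% were below HK2 in control cells against 72.5% in miR-143 cells.

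**Figure D4:**
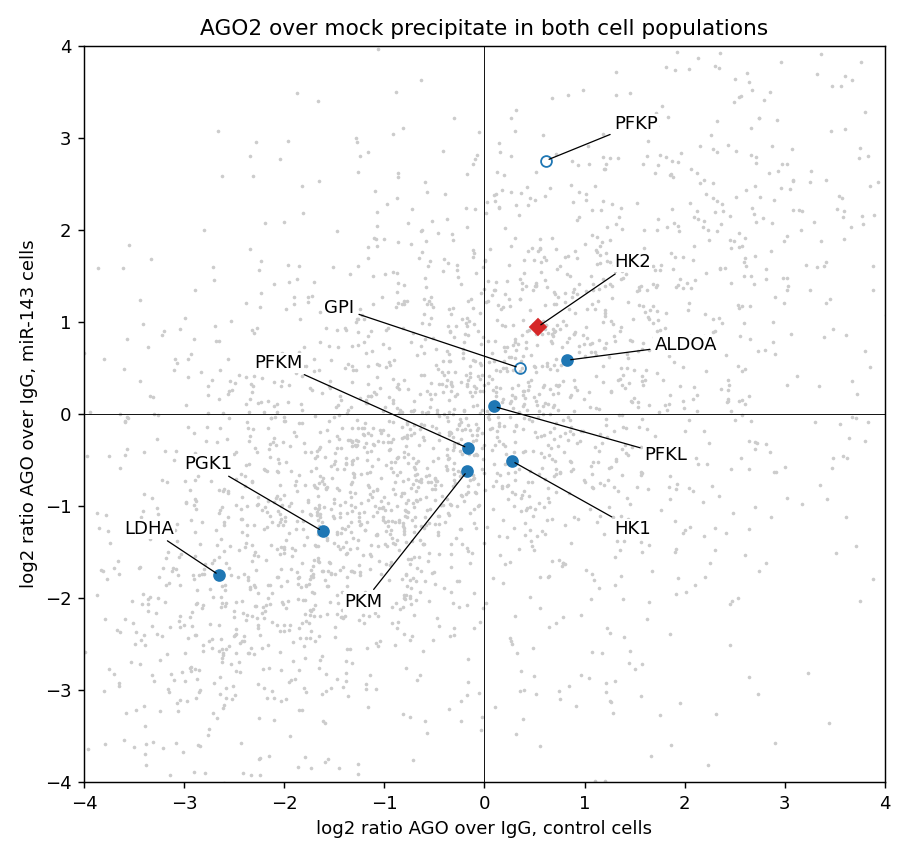
Log2 ratio of AGO2 over mock precipitate in control cells (horizontal axis) and in miR-143 cells (vertical axis). Large symbols are the 10 glycolysis genes, with HK2 as a red diamond and joined rows open, and grey points are the 2768 of the 2778 rows above that reached 1 FPKM in at least 1 group of both comparisons, of which 196 lie outside the axes. LDHA and PGK1 lie in the lower left, ALDOA and HK2 in the upper right, and PFKP lies high in miR-143 cells.

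The mock precipitates measure what is recovered without the AGO2 antibody. Over all rows, more differed by 2-fold between them than between the AGO2 precipitates, but LDHA, PGK1, ALDOA and PFKM differed less. The low edge relative to miR143_AGO was 12.9 for control_IgG and 1.64 for miR143_IgG, and the part of depth in these differences was not tested. Of the members, only the joined row of PFKP was past 2-fold, 5.56-fold lower in miR143_IgG than in control_IgG, with a log2 ratio of -2.20. Over 10172 rows, 26.8% were at least 2-fold lower, 36.2% at least 2-fold higher and 8.87% past 10-fold. HK2 was 2.10-fold lower by its plain ratio, but its log2 ratio with the pseudocount was -0.52 and did not pass 2-fold. Both values of HK2 are near 1 FPKM, and that of control_IgG stands only 10.1 to 11 times above the low edge. HK1 was higher in miR143_IgG, with a log2 ratio of 0.81, as was PKM with 0.64. PFKL had a log2 ratio of -0.76, beside its -0.77 between the AGO2 precipitates. LDHA (-0.04), PFKM (-0.11), GPI (-0.23), ALDOA (-0.32) and PGK1 (0.39) differed less, and the sign of LDHA depended on the scaling.

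The IgG-corrected ratio divides AGO2 over mock in miR-143 cells by AGO2 over mock in control cells, and so uses all 4 groups and shares libraries with each comparison above. HK2 was 1.90-fold higher by the plain ratio and 0.41 on the log2 scale, above 60.3% of 11914 rows and 0.42 above the median of the other members. The joined row of PFKP was the only member past 2-fold, with a log2 ratio of 2.14, and its value follows from the low FPKM in miR143_IgG. Over all rows, 29.0% were at least 2-fold higher, 33.5% at least 2-fold lower and 10.3% past 10-fold, and no member was past 10-fold. LDHA reached 0.90 on the log2 scale and 2.01-fold by its plain ratio, PGK1 0.34 and GPI 0.15. HK1 (-0.78), PKM (-0.45), ALDOA (-0.24), PFKM (-0.21) and PFKL (-0.01) were at or under 0, the sign of PFKL depending on the scaling.

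Within a group, isozymes can be set against each other without regard to library totals. HK1 exceeded HK2 by 22.2 times in control_IgG against 15.2 times in control_AGO, and 83.4 times in miR143_IgG against 17.2 times in miR143_AGO. HK2 thus made up 4.31%, 6.19%, 1.18% and 5.50% of the FPKM of both hexokinases in these groups. The AGO2 precipitates of both populations gave similar shares, and the mock precipitate of miR-143 cells gave the lowest. Of PFKL and PFKM, which have rows of their own, PFKL made up 60.9% in control_IgG against 65.3% in control_AGO, and 49.2% in miR143_IgG against 57.7% in miR143_AGO.

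LDHB, the heart-type subunit of lactate dehydrogenase, exceeded LDHA in all 4 groups, by 2.50 times in control_IgG against 3.31 in control_AGO, and 1.22 in miR143_IgG against 1.71 in miR143_AGO. LDHA made up 28.6%, 23.2%, 45.0% and 37.0% of both subunits, so that both precipitates of miR-143 cells had a larger share of LDHA than both of control cells. LDHB itself was listed at 108 FPKM in control_IgG against 19.9 in control_AGO, and 51.0 in miR143_IgG against 20 in miR143_AGO, low in the AGO2 precipitates as LDHA was. ALDOA, in contrast, exceeded LDHA by 7.93 times in control_IgG and 101 times in control_AGO, and by 6.53 times in miR143_IgG and 35.0 times in miR143_AGO.

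**Figure D5:**
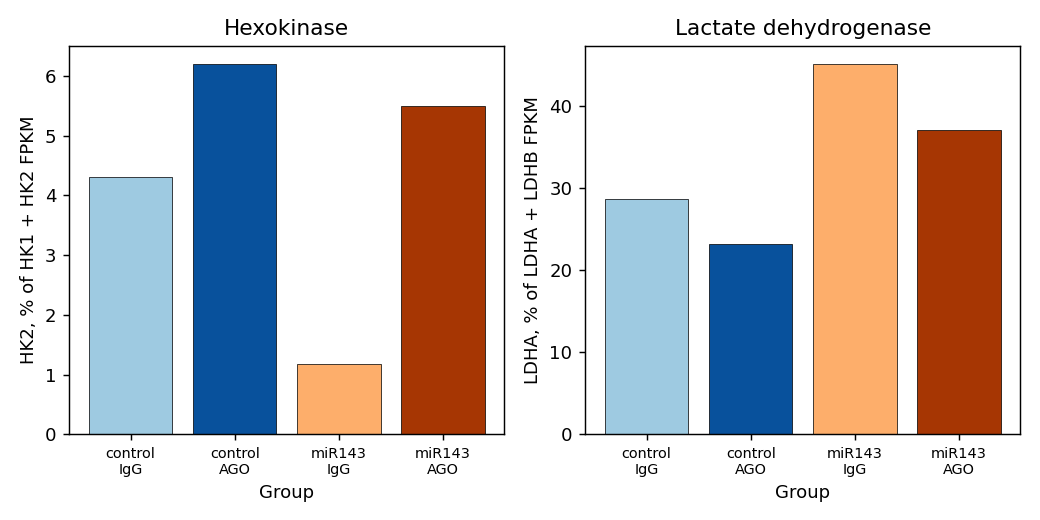
Share of HK2 in the FPKM of HK1 and HK2 (left) and share of LDHA in the FPKM of LDHA and LDHB (right), in percent, with 1 bar for the authors' average of each group and no error available. The share of HK2 is lowest in miR143_IgG at 1.18%, and the share of LDHA is higher in the precipitates of miR-143 cells (45.0% and 37.0%) than of control cells (28.6% and 23.2%).

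The rows whose profile over the 4 groups came nearest to that of HK2 were IRF3, SLC35A2 and LMF2, out of 4197 rows of 1 coding gene with a mean of 5 FPKM or more. The measure was the Euclidean distance of log2(FPKM + 1) centred on each gene, over 4 values, and was 0.0869 for IRF3, 0.101 for SLC35A2 and 0.133 for LMF2. HK2, at 0.638 to 2.39 FPKM, is itself under that filter. The added 1 shrinks its differences more than those of the 3 rows, so that the nearness holds on this scale only. IRF3, a transcription factor of the interferon response, was listed at 33.7 FPKM in control_IgG against 48.8 in control_AGO, and 22.6 in miR143_IgG against 42.3 in miR143_AGO. That all 3 have control_AGO highest and miR143_IgG lowest, like HK2, follows from their choice by nearness and is not a result.

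Of 19 other glycolytic enzymes, 12 were above 0 in at least 1 group and 10 could be compared between the AGO2 precipitates. Their median log2 ratio was 0.21. ENO3, the muscle enolase, was higher in miR-143 cells with a log2 ratio of 1.40 (0.485 and 2.91 FPKM in control_AGO and miR143_AGO), as was PKLR, the pyruvate kinase of liver and red cells, with 1.12 (2.44 and 6.46 FPKM). None was 2-fold lower, beside 17.7% of all rows higher and 14.1% lower. PKLR was at 0.97 when the groups were set to the same median. Between the mock precipitates ENO3 stood at 2.29 and PKLR at -1.03, and their IgG-corrected log2 ratios were -0.90 and 2.15. HK3, HKDC1, GAPDHS, PGK2, PGAM2 and PGAM4 were among those listed at 0 in all groups. Between AGO2 and mock precipitates, 4 of 9 enzymes were 2-fold lower in control cells (ADPGK, TPI1, PKLR and LDHB) and ENO2 was higher, beside 36.2% of all rows lower and 34.5% higher. TPI1, at -1.04, was between -0.71 and -0.51 under the other 3 scalings. In miR-143 cells 4 of 11 were lower, among them ALDOC, ENO1 and LDHB, and ENO2 was again higher, beside 33.5% of all rows lower and 26.6% higher. As a share of coding FPKM, ALDOC at -0.65 and LDHB at -0.82 were no longer past 2-fold. GAPDH, often used as a reference gene, was listed at 566 FPKM in control_IgG against 467 in control_AGO, and 584 in miR143_IgG against 522 in miR143_AGO.

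Of 8 genes of glucose and lactate transport, 5 were compared between the AGO2 precipitates and none differed by 2-fold, with a median log2 ratio of 0.47. SLC2A1, the glucose transporter of erythroid cells, was listed at 22.2 FPKM in control_IgG against 18.7 in control_AGO, and 24.2 in miR143_IgG against 31.1 in miR143_AGO. Of 14 regulators of the pathway, 8 were compared, of which the AGO2 precipitate of miR-143 cells had 3 past 2-fold higher and 1 lower, beside 17.7% and 14.1% of all rows, and their median was 0.83. EPAS1, a hypoxia-inducible factor, had a log2 ratio of 1.53 (2.56 and 9.25 FPKM in control_AGO and miR143_AGO). PDK1, a kinase that closes the entry of pyruvate into the citrate cycle, had 1.28 (1.43 and 4.90 FPKM), and a joined row with HIF1A had 1.23 (0.336 and 2.14 FPKM). PFKFB3, which makes the activator of phosphofructokinase, was lower with -1.68 (43.9 and 13.0 FPKM). Between the mock precipitates the log2 ratios were 0.35 for EPAS1, 1.87 for the HIF1A row and -0.69 for PFKFB3. PDK1 did not reach 1 FPKM in either mock precipitate. The IgG-corrected log2 ratios were 1.18 for EPAS1, 1.33 for PDK1, -0.63 for the HIF1A row and -0.99 for PFKFB3. Of these 4, PDK1 held matches of 7 bases to the miR-143-3p seed, 2 of the form 7mer-m8, and its longest 3′ UTR has 12700 nt. EPAS1, HIF1A and PFKFB3 held none, beside 24.1% of all coding genes with a match of 7 or more bases. Of the other pathway genes named in this text besides the members, ENO1, SLC2A1, SLC2A3 and PC held 1 such match each. Their log2 ratios between the AGO2 precipitates were 0.03, 0.71, -0.27 and 1.15 in this order. Between AGO2 and mock precipitates, 3 of 8 regulators were higher in control cells (PFKFB3, TXNIP and a joined row with PFKFB4) and none was lower, beside 34.5% and 36.2% of all rows. In miR-143 cells 6 of 9 were higher and 2 were lower (BPGM and a joined row with HIF1A), beside 26.6% and 33.5% of all rows. As a share of coding FPKM, PDK1 (1.20) and PDK2 (1.20) also passed 2-fold in control cells, so that 5 of 8 were higher, and BPGM (-0.93) and HIF1A (-0.95) were no longer lower in miR-143 cells. TXNIP, which restrains glucose uptake, was listed at 36.9 FPKM in control_IgG against 220 in control_AGO, and 59.5 in miR143_IgG against 235 in miR143_AGO. Of the transport genes, only SLC16A1, a lactate carrier, was 2-fold lower in control cells, and only SLC2A3 was 2-fold higher in miR-143 cells, and SLC2A3 passed 2-fold in control cells too as a share of coding FPKM. SLC2A3, a neuronal type of glucose transporter, was the highest of the SLC2A genes, at 65.8 FPKM in control_IgG against 94.4 in control_AGO, and 28.8 in miR143_IgG against 77.8 in miR143_AGO.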

How the data were processed

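AGO-RIP libraries of K562 cells were analysed as 4 deposited tables, in which the authors give 1 average FPKM per row and group, made with TopHat and Cufflinks on hg38 per the submitters' processing notes. Program versions and annotation are not given in the sources used here. The labels describe removal of ribosomal RNA and random priming, the study's methods a TruSeq kit, and strand use is not stated. Groups follow the sample titles. Ratios are log2((FPKM + 1)/(FPKM + 1)) over rows with 1 FPKM or more in at least 1 group compared, called at 2-fold and, as a second rule, 10-fold, without a test, since no replicate values were analysed. Such ratios understate the change of low genes. FPKM of all genes falls where a few RNAs are abundant. The form of the design for pooled values was used.

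The low edge is the 10th lowest product of FPKM and transcript length above 0 and gives no fragment counts. Coordinates and 3′ UTRs are from GENCODE 29 (GRCh38). Named genes are the 10 members, at most 4 members per list past 2-fold between the AGO2 groups, the 3 rows nearest to HK2, and MIR143. Other names are given where a count of 5 or fewer needed them, after their values were seen. The members and lists were chosen with earlier results of these data known. Scripts (Python 3.11.15, matplotlib 3.10.9) were tested on simulated data. Alternatives were other pseudocounts, filters, scalings and treatments of joined or repeated rows. Some genes of the lists and 1 sequence are not reported here.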

Additional observations from a re-analysis of the deposited data

How the results depend on the processing

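Of 147 values recomputed under alternatives, 137 stayed within 1.5 times of the reported value, 10 moved by more, and no called value changed sign. Some of the 137 could not move. All members passed the filter on low values already, and none had a further row of the same name to add to the row used. Leaving out joined rows does not touch HK2. The 137 are therefore not a measure of robustness. The median of the members changed sign in 7 of the 147. It went from -0.14 to 0.07, 0.30 and 0.32 in miR143_AGO over miR143_IgG (same median, same upper quartile, share of coding FPKM) and from 0.18 to -0.04 in control_AGO over control_IgG (joined rows left out). In the IgG-corrected ratio it went from 0.07 to -0.01 (a mean of 5 FPKM required), -0.06 (same upper quartile) and -0.11 (joined rows left out). No log2 ratio of HK2 changed sign. The members past 2-fold between the mock precipitates were 1 as reported, 2 by plain ratios and 0 without joined rows, and those of the IgG-corrected ratio were likewise 1, 2 and 0. Shares of all rows by plain ratios are not given here. In control_AGO over control_IgG the members past 2-fold were 2 as reported. They were 4 with groups set to the same upper quartile (all rows: 39.5% higher, 29.1% lower) or taken as a share of coding FPKM (39.6% and 28.9%). In miR143_AGO over miR143_IgG they were 3, and 5 as a share of coding FPKM, beside 33.8% of all rows higher and 25.7% lower. The log2 ratio of HK2 in that comparison was 0.95, but 1.61 with a pseudocount of 0.1, 1.76 as a plain ratio and 0.34 with a pseudocount of 5. With a mean of 5 FPKM required, HK2 could not be compared. No paired analysis was possible because single replicates have no column in the tables, and leaving out single replicates was not possible for the same reason. Depth limits HK2 most in control_IgG.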

Other observations

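Genes of the pathways that branch from glycolysis were compared in the same way. Of 8 genes of the pentose phosphate pathway, 7 were compared between the AGO2 precipitates, with a median log2 ratio of -0.18. PGD, which makes ribulose-5-phosphate, was higher in miR-143 cells with a log2 ratio of 1.94 (11.6 and 47.5 FPKM in control_AGO and miR143_AGO). PGLS, which acts just before PGD, was lower with a log2 ratio of -1.07 (29.9 and 13.7 FPKM). Of 6 genes of gluconeogenesis, FBP1, FBP2, PCK1 and G6PC were listed at 0 in all groups. PC, the pyruvate carboxylase, was higher with a log2 ratio of 1.15 (3.72 and 9.50 FPKM), or 0.99 with the groups set to the same median, and PCK2, the mitochondrial PEP carboxykinase, was lower with a log2 ratio of -1.07 (35.8 and 16.6 FPKM).

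The GC content of the longest 3′ UTR was looked up after the ratios had been seen. It was 37.2% in LDHA, 39.6% in PGK1, 40.8% in HK2, 41.4% in PFKM, 46.2% in PFKP, 50.2% in GPI, 53.9% in HK1, 57.0% in PKM, 63.6% in ALDOA and 67.1% in PFKL, beside a median of 48.5% over 2753 rows of 1 coding gene with a mean of 10 FPKM or more. The members with the lowest GC content, LDHA and PGK1, were those lowest in AGO2 over mock precipitate, but HK2, next in order, was not. Over those 2753 rows Spearman's rho of GC content with the log2 ratio was 0.24 in control_AGO over control_IgG, 0.28 in miR143_AGO over miR143_IgG and -0.12 in miR143_AGO over control_AGO. Genes in 1 library share its depth and base composition, and the part of GC content in the ratios was not tested.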
